A study of Sus scrofa with 4 samples.

Results

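Blood endothelial cells line the arteries, capillaries and veins of the testis. Here they were picked from single-cell RNA libraries of pig (Sus scrofa) testis at 7 and 30 days of age by a rule on their own counts. Barcodes were kept first where they held 1000 or more unique molecular identifiers (UMIs, the counted molecules) from 500 or more genes, of which no more than 15% came from the 13 mitochondrial genes. A kept barcode then needed at least 3 of 8 blood endothelial genes (CD93, GPIHBP1, CLDN5, VWF, ROBO4, MMRN2, APLNR and CLEC3B), at most 1 of the lymphatic genes PROX1, LYVE1 and MMRN1, and less than 0.1% of UMIs from the Sertoli cell genes AMH, INHA and CLDN11. The rule found 925 cells among 31132 that passed the first filters and 35269 barcodes in the 2 libraries. Of these, 391 were from the 7-day library (2.82% of 13847 cells, exact 95% interval 2.55 to 3.11%) and 534 from the 30-day library (3.09% of 17285, 2.84 to 3.36%).

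The series profiled suspensions of testis cells at 7, 30, 60 and 90 days, with 1 droplet library of Chromium 3′ chemistry per age. No treatment or genotype is named in the labels, and the breed and the number of animals behind a library are not given in the sources used here. Because each age is 1 library, age and library cannot be told apart, no test between ages was possible, and "higher" and "lower" below give the size of a ratio. Levels are counts per 1000000 (CPM) of the counts summed over a group of cells, ratios are on the log2 scale, and every interval given is an exact one at 95%, for the error of counting alone.

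Endothelial cells form the inner wall of every vessel and join to one another through VE-cadherin and claudin 5. They answer to VEGF and angiopoietin from outside, to Notch signals between neighbours and to the shear of flowing blood, and they become arterial, capillary or venous. In the testis the vessels run between the seminiferous tubules, where they supply Leydig cells and carry hormones, and they do not enter the tubules.

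The summed counts were 2801881 at 7 days and 2756352 at 30 days, with medians of 4391 and 3610.5 UMIs per cell. In all cells that passed the filters the medians were 5241 and 3071. The 2 libraries shared 92 barcode sequences, none of them among the 925 cells. Doublets, droplets that held more than 1 cell, were called per library but not removed, and the calls fell on 23 of 391 cells (5.88%) at 7 days and 67 of 534 (12.5%) at 30 days.

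The genes that chose the cells are given as a description only. Summed over the 8 blood endothelial genes, the level was 9876 CPM at 7 days and 8241 CPM at 30 days, against 167 and 137 CPM in all other cells of those libraries. CLDN5, a tight junction protein of endothelium, was detected in 91.8% of the cells at 7 days and 91.2% at 30 days. GPIHBP1, which carries lipoprotein lipase to the capillary lumen, was at 788 and 291 CPM and was detected in 82.9% and 40.3% of the cells. Among barcodes that met the other limits, the 16 cells with exactly 3 of the 8 genes at 7 days held 378 CPM of 12 other endothelial genes, and the 135 cells with exactly 2 held 167 CPM. At 30 days the 35 cells with 3 held 1042 CPM and the 119 cells with 2 held 324 CPM. Cells with 4 of the genes held 2591 and 2718 CPM, so the cells just inside the rule were the poorest in endothelial genes among those it admitted.

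The label was checked against endothelial genes that the rule did not use. At least 3 of 12 of them (PECAM1, CDH5, KDR, FLT1, TEK, TIE1, EGFL7, ERG, EMCN, ESAM, ECSCR and PLVAP) were detected in 94.4% of the cells at 7 days and 92.5% at 30 days. Their summed level was 3628 and 3162 CPM, against 134 and 148 CPM in all other cells and 67 and 113 CPM in stromal cells. Lymphatic endothelial cells, taken for comparison as cells with at least 2 of the 3 lymphatic genes and at least 3 of the 8 rule genes and these 12 together, held 3120 and 3251 CPM of the same 12 genes, a level that their own choice used in part. They were set apart by 5 lymphatic genes that the rule did not use, PDPN, FLT4, CCL21, RELN and TFF3, which summed to 3598 and 3247 CPM in the lymphatic cells and to 51 and 25 CPM in the blood endothelial cells.

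Not every cell under the rule carried an endothelial program alone. Clustering the 925 cells gave 12 clusters, and in 5 of them at least 2 markers of another cell type stood among the 12 leading genes. These led with stromal genes (57 cells; COL1A1, DCN), genes of mural cells, the contractile cells around vessels (40 cells; RGS5, PDGFRB, MYH11), germ cell genes (29 cells; DND1, UCHL1), macrophage genes (21 cells; C1QB, C1QA) and Leydig cell genes (15 cells; INSL3, CYP17A1). Together they held 162 cells, 39 at 7 days (9.97% of the cells and 17.8% of the counts) and 123 at 30 days (23.0% of the cells and 39.0% of the counts). Of the 90 called doublets, 77 lay in these mixed clusters. The rule for calling a cluster mixed was set after seeing the data, so the list counts below are given also for the 763 cells outside them, 352 at 7 days and 411 at 30 days.

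Markers of the 5 cell types that led the mixed clusters were lower outside them. The same marker lists had been used to call those clusters mixed, so this fall follows from the choice and is a description only. The 8 stromal markers summed to 1163 CPM at 7 days and 1289 CPM at 30 days in all 925 cells, and to 493 and 308 CPM without the mixed clusters. For the 10 mural and myoid markers the sums were 281 and 633 CPM with the mixed clusters and 127 and 120 CPM without them. The 6 measured Leydig markers gave 1423 and 2290 CPM, and 436 and 243 CPM without. The 10 macrophage markers gave 379 and 286 CPM, and 268 and 160 CPM without. MRC1 alone, among these 10, was at 186 and 104 CPM without the mixed clusters. Germ cell markers, 5 of them measured, gave 82 and 129 CPM, and 11.3 and 13.7 CPM without, and the 8 T and NK cell markers were at 8.69 and 11.3 CPM without, with CD3D and IL7R at 0 counts at 7 days and CD3G and GNLY at 0 counts at 30 days. The 8 Sertoli markers that the rule did not use were at 143 and 179 CPM in all cells and at 149 and 162 CPM without the mixed clusters. WT1 alone, among these 8, was at 109 and 121 CPM without the mixed clusters. The 5 lymphatic markers were at 53 and 26 CPM without.

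**Figure D1:**
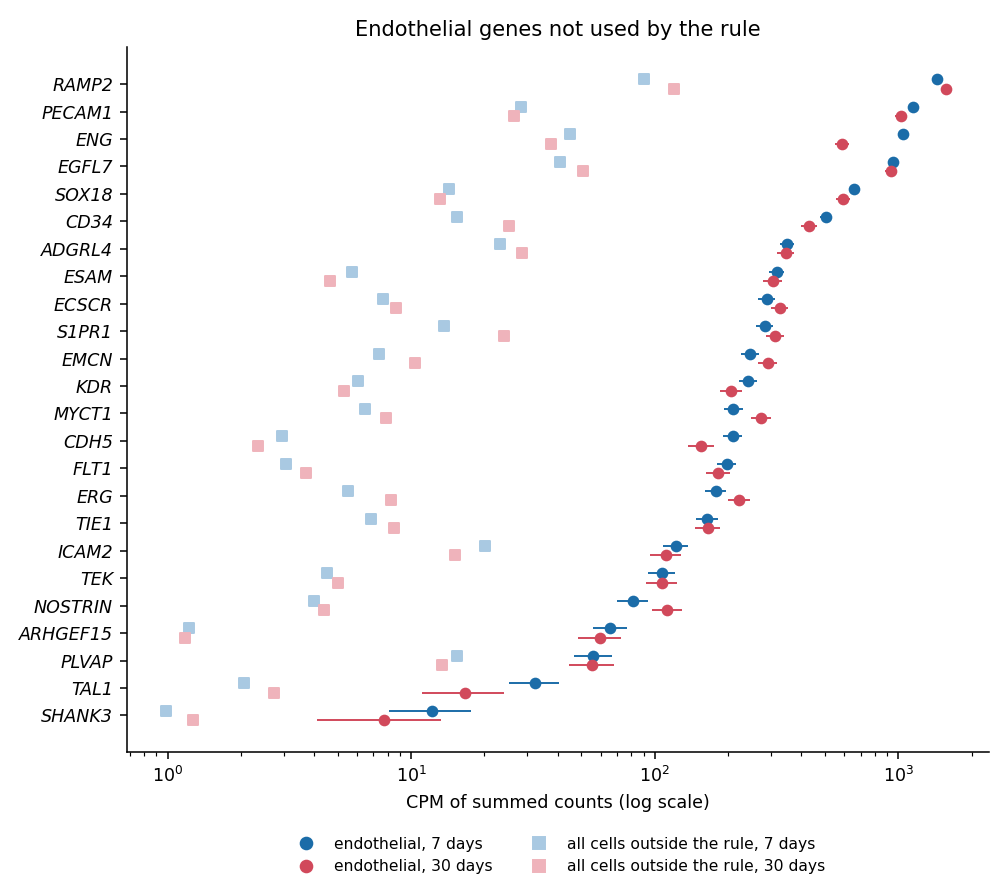
Level of 24 endothelial genes that the rule did not use, in CPM of summed counts on a log scale. Circles are the cells outside the mixed clusters at 7 days (blue) and 30 days (red), with exact 95% counting intervals, and pale squares are all cells outside the rule. Each circle lies to the right of the squares of its gene, and ENG, at 1041 and 587 CPM, is one of the 2 genes counted as lower at 30 days.

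The genes that led these cells over all other cells of their library included a carbonic anhydrase, adhesion proteins and Notch and apelin ligands. This ranking describes the choice of cells and is no test, since the other cells include endothelial cells that the rule left out. CA4, a carbonic anhydrase on the capillary surface, was at 518 CPM (492 to 546) at 7 days and 421 CPM (397 to 446) at 30 days, 106 and 120 times the level in all other cells. CDH5, which encodes VE-cadherin, was 62.9 and 53.0 times higher than in the other cells. APLN, the ligand of the apelin receptor, was 77.1 and 50.5 times higher, and DLL4, a Notch ligand of arterial and sprouting endothelium, 51.2 and 80.4 times. The transcriptional repressor gene HES2 was 87.3 and 83.5 times higher, and TM4SF1, a tetraspanin-like protein of endothelial membranes, 57.8 and 54.2 times. The other leading genes were TM4SF18, FAM110D, CYYR1, PCDH12, ESAM, GPR4, PDE2A, CAVIN2 and DYSF.

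Few identity genes differed by 1.5 times between the ages. Of 24 measured genes of the endothelial identity list, none was counted as higher at 30 days and 2 as lower, with a median log2 ratio of -0.20, and -0.04 outside the mixed clusters, where the counts were the same. A gene was counted where its ratio was at least 1.5 either way, its interval left out 1 and the libraries held at least 10 counts together. Over all 13108 genes measured that deeply, 8.86% were higher at 30 days and 5.08% lower, with a median of 0.07. Outside the mixed clusters 6.91% of 11138 genes were higher and 6.52% lower. The list counts in the paragraphs below are to be read beside these shares.

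ENG, the endoglin co-receptor for BMP9, was at 915 CPM at 7 days and 464 CPM at 30 days, a log2 ratio of -0.98 (-1.08 to -0.88). TAL1, a transcription factor shared with blood cell precursors, was the other gene counted as lower, at 30.7 and 12.7 CPM. PECAM1, the adhesion molecule CD31, was at 1006 and 788 CPM (log2 ratio -0.35), and at -0.16 outside the mixed clusters. RAMP2, which makes the adrenomedullin receptor with CALCRL, was at 1277 and 1246 CPM (-0.04). The VEGF receptor genes FLT1 and KDR had log2 ratios of -0.22 and -0.35, and in all 1 of 14 genes of the VEGF and TIE pathways was counted as higher and none as lower, PGF in all 925 cells and VEGFA outside the mixed clusters. Over all genes 8.86% were higher and 5.08% lower, and 6.91% and 6.52% outside the mixed clusters.

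Among the endothelial transcription factors 3 of 26 were counted as higher at 30 days and 1 as lower, and 3 and 2 of 26 outside the mixed clusters, where FOXF1 joined TAL1. The shares over all genes were 8.86% higher and 5.08% lower, and 6.91% and 6.52% outside the mixed clusters. SOX17, a factor of arterial endothelium, was at 177 CPM (162 to 194) at 7 days and 273 CPM (254 to 293) at 30 days. Its log2 ratio was 0.62 (0.46 to 0.79), and 0.72 outside the mixed clusters, against 0.39 in all other cells. GATA2 was at 32.1 and 49.3 CPM and SOX7 at 26.4 and 39.9 CPM. KLF2, which flow induces, was at 1190 and 1518 CPM, a log2 ratio of 0.35 that did not reach the 1.5-fold limit.

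Interferon-stimulated genes were the list with the most genes lower at 30 days. These genes encode antiviral and immune effectors and are switched on when interferon binds its receptor. Of 22 measured, 20 were lower at 30 days and none was higher, with a median log2 ratio of -1.30, beside 5.08% lower over all genes. Outside the mixed clusters 21 of 22 were lower, with a median of -1.37, beside 6.52%. IRF1 was the exception there, with 387 CPM at 7 days and 397 CPM at 30 days.

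IFI6, a small interferon-induced protein of mitochondria (chromosome 6, 84852782 to 84858072, Sscrofa11.1), was at 5432 CPM (5346 to 5519) at 7 days and 1545 CPM (1499 to 1592) at 30 days. Its log2 ratio was -1.81 (-1.86 to -1.76), 3.52 times lower. With every cell thinned to 1500 UMIs, IFI6 was detected in 97.7% of the cells at 7 days and 83.6% at 30 days, and unthinned in 99.0% and 93.3%. In T and NK cells, whose median depths were 3179 and 1592 UMIs, the thinned shares were 69.0% and 52.7%. In all other cells of the libraries IFI6 stood at 2158 and 2203 CPM, a log2 ratio of 0.03. In lymphatic endothelial cells it was -1.91 and in stromal cells -0.77. At 60 days the same rule gave 104 cells with 4622 CPM of IFI6, and at 90 days 792 cells with 3503 CPM, both above the 30-day level.

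ISG15, a ubiquitin-like modifier, was at 1233 and 500.3 CPM, a log2 ratio of -1.30. Its conjugating enzyme UBE2L6 was at 204 CPM (188 to 222) and 55.9 CPM (47.4 to 65.4). MX2, a dynamin-like GTPase that blocks viruses, was at 426 and 123 CPM (-1.79), and outside the mixed clusters at 468 and 152 CPM. OAS1 and OAS2, which sense double-stranded RNA, were at 77.8 and 17.8 CPM and at 182 and 51.9 CPM. BST2, which tethers budding virus, was at 379 and 119 CPM (-1.68). EPSTI1, CMPK2, FBXO39 and LGALS3BP, a secreted galectin-binding protein, were also among the 12 largest decreases, LGALS3BP with 469 and 102 CPM. Genes with close copies in the pig genome, such as OAS1, OAS2 and MX2, may share reads, and the values are as the authors' counting assigned them.

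The same list was also lower at 30 days in cells outside the rule. Its median log2 ratio was -1.03 in all other cells, -1.38 in stromal cells and -1.72 in lymphatic endothelial cells. Among the blood endothelial cells it was lower at 30 days in each of the 9 clusters with more than 5 cells of both ages. In the arterial-like cluster described below, the list summed to 14801 CPM at 7 days and 5251 CPM at 30 days. In the dividing cluster the sums were 9173 and 3321 CPM. The library cannot be told apart from the age in any of these pairs.

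**Figure D2:**
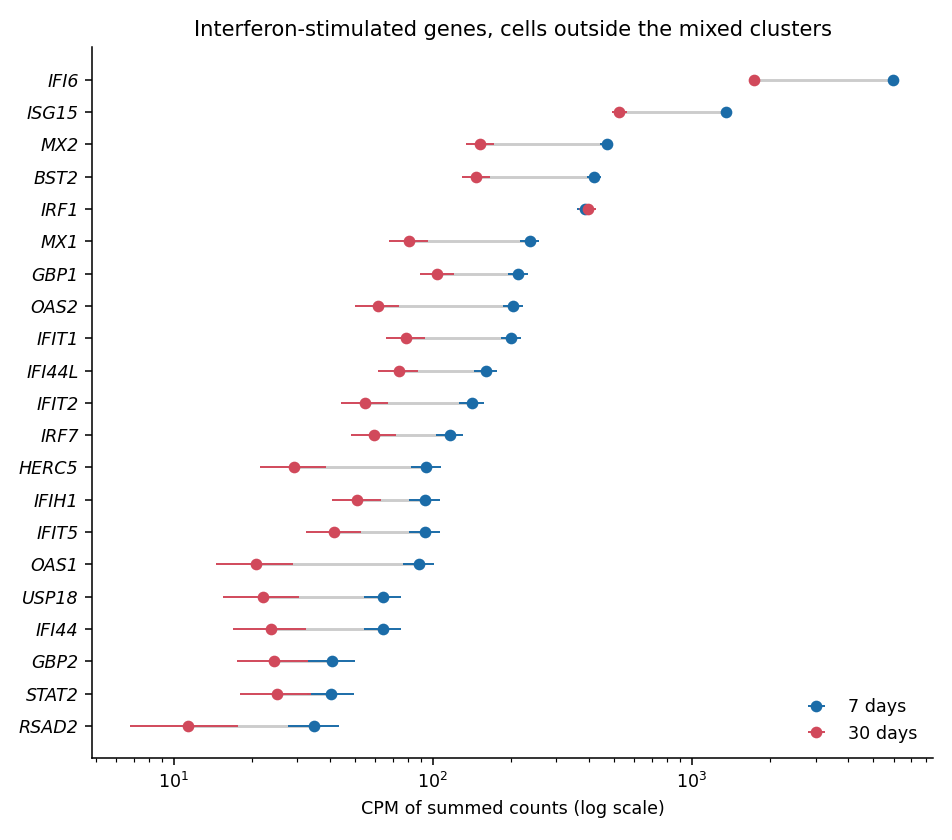
CPM of 21 interferon-stimulated genes in the cells outside the mixed clusters at 7 days (blue) and 30 days (red) on a log scale, with exact 95% counting intervals and a grey line between the 2 values of a gene. IRF1 is the gene whose 2 points overlap, at 387 and 397 CPM, and for the other 20 the 7-day point lies to the right.

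Antigen presentation genes present peptides to T cells. Of 14 measured, 8 were lower at 30 days and none was higher, with a median of -0.73, beside 5.08% lower over all genes, and the count outside the mixed clusters was also 8 of 14. CIITA, the master activator of MHC class II genes, was at 47.5 and 11.6 CPM, a log2 ratio of -2.03 (-2.64 to -1.47). SLA-DRA, a class II chain of the pig, was at 1054 and 550.4 CPM (-0.94), and SLA-DRB1 at 798 and 555 CPM (-0.52), short of the limit. The peptide transporter gene TAP1 was at 158 and 81.3 CPM and the immunoproteasome subunit PSMB9 at 273 and 153 CPM. CD74, the invariant chain, was at 6843 and 6262 CPM, a log2 ratio of -0.13. In all other cells the median of the list was -0.70. The SLA genes belong to a family of close copies.

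Tip cells lead a vascular sprout, and of 16 tip cell and sprouting genes 2 were counted as higher at 30 days and 5 as lower, with 9 neither (median -0.43). Outside the mixed clusters these were 1 and 4 of 15, beside 6.91% higher and 6.52% lower over all genes. The list median was -0.29 in all other cells, -0.16 in stromal cells and -0.69 in lymphatic endothelial cells. By cluster, described below, the list summed to 2221 CPM at 7 days and 1116 CPM at 30 days in cluster 1. The sums were 1803 and 2178 CPM in cluster 2, and 2168 and 3124 CPM in cluster 4, with 8 cells at 30 days. In cluster 5 they were 1971 and 1706 CPM, and in cluster 7 they were 1658 and 1392 CPM. APLN (chromosome X, 106236746 to 106246563) was at 320 CPM (300 to 342) at 7 days and 103 CPM (91.1 to 115) at 30 days. Its log2 ratio was -1.64 (-1.84 to -1.45), and -1.54 outside the mixed clusters. In cells thinned to 1500 UMIs it was detected in 32.1% and 11.8% of the cells, and unthinned in 59.1% and 24.9%. In stromal cells, with median depths of 3532.5 and 2207 UMIs, the thinned shares were 0.178% and 0.198%. ESM1, a secreted proteoglycan of tip cells, was at 38.9 and 23.2 CPM, with a log2 ratio of -0.74 that became -0.43 outside the mixed clusters. TP53I11 was at 256 and 125 CPM and the guidance receptor gene UNC5B, one of the higher genes, at 26.8 and 43.2 CPM.

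Of 17 basement membrane genes, which encode the sheet under the endothelium, 5 were lower, 12 neither and none higher at 30 days, and the counts were the same outside the mixed clusters. Over all genes 5.08% were lower, and 6.52% outside the mixed clusters. The list median was -0.39, where in all other cells it was 0.19, in stromal cells 0.07 and in lymphatic endothelial cells -0.18. By cluster, described below, the list summed to 9452 CPM at 7 days and 6292 CPM at 30 days in cluster 1. The sums were 6418 and 6459 CPM in cluster 2, and 7733 and 7336 CPM in cluster 4. In cluster 5 they were 7094 and 6622 CPM, and in cluster 7 they were 5137 and 4944 CPM. NID2, a nidogen that links laminin to collagen IV, was at 293 CPM (274 to 314) and 131 CPM (118 to 145), a log2 ratio of -1.16. LAMA4, the laminin chain of endothelial basement membrane, was at 196 and 117 CPM (-0.74), while in all other cells it was at 17.7 and 28.1 CPM (0.67). COL4A1 was at 786 and 490 CPM (-0.68), COL18A1, the source of endostatin, at 163 and 97.2 CPM, and NID1 at 68.5 and 40.6 CPM. HSPG2, the perlecan gene, was at 649 and 498 CPM (-0.38), within the limit.

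Further genes that were lower at 30 days had other roles. HPGD, which breaks down prostaglandins, was at 168 CPM (153 to 184) at 7 days and 38.1 CPM (31.2 to 46.1) at 30 days, with a log2 ratio of -0.39 in all other cells. RBP7, a retinol-binding protein of endothelium (chromosome 6, 70313316 to 70326407), was at 283 CPM (264 to 304) and 75.1 CPM (65.2 to 86.1). Its log2 ratio was -1.92, beside -0.76 in all other cells and -0.93 in stromal cells. In lymphatic endothelial cells RBP7 was at 101 and 21.5 CPM, a log2 ratio of -2.24. Thinned to 1500 UMIs, RBP7 was detected in 30.7% and 8.71% of the cells (unthinned 59.6% and 22.1%) and in 0.385% and 0.180% of stromal cells. At 60 and 90 days RBP7 was at 22.2 and 18.3 CPM. F2R, the thrombin receptor, was at 358 and 168 CPM (-1.09), while in all other cells it was 0.25. RGCC, a capillary gene, was at 244 and 139 CPM (-0.81). ACE, the angiotensin-converting enzyme, was at 280 and 180 CPM (-0.64), with -0.48 outside the mixed clusters, short of the limit.

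Cell division genes were lower at 30 days in 12 of 21 cases, beside 5.08% over all genes, and higher in none, with a median of -0.79. The counts were the same outside the mixed clusters, beside 6.52% lower over all genes there. With thinned cells, and also without cells that held at least 3 markers of 1 other cell type, 6 were lower. TOP2A, the topoisomerase of dividing cells, was at 245 and 135 CPM, and CENPF, a kinetochore protein, at 281 and 119 CPM. H2AC12, a histone gene, was at 52.1 CPM (44.0 to 61.3) and 5.44 CPM (3.05 to 8.98). It belongs to a family of close copies, and in all other cells it was at 33.4 and 4.48 CPM. Cells with at least 3 of 9 measured division genes were counted after thinning to 1500 UMIs. They were 47 of 352 cells at 7 days (13.4%, 9.98 to 17.4%) and 31 of 482 at 30 days (6.43%, 4.41 to 9.01%), and 24.8% and 12.7% without thinning. The median of the list in all other cells was -0.90.

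Immediate early genes are transcribed within minutes of a stimulus. Of 19 measured, 5 were higher and none lower, with a median of 0.41, and 4 of 18 with a median of 0.53 outside the mixed clusters, beside 8.86% and 6.91% higher over all genes. With TMM scaling 4 were higher and 2 lower, and the median was 0.34. In all other cells the median was -0.05 and in stromal cells 0.40.

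FOSB was at 284 CPM (264 to 304) and 674 CPM (644 to 705), a log2 ratio of 1.25, and at 930 and 645 CPM in all other cells. DUSP1, a phosphatase that limits MAP kinase signals, was at 447 and 798 CPM (0.84). FOS, JUN and EGR1 had log2 ratios of 0.39, 0.40 and 0.42, below the limit, and the ratios outside the mixed clusters were 0.53, 0.54 and 0.51. SOCS3, a brake on cytokine signals in the same list, went the other way with 881 and 607 CPM (-0.54), also within the limit.

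CXCL2, a neutrophil-attracting chemokine (chromosome 8, 70157253 to 70159145), was at 339 CPM (317 to 361) at 7 days and 982 CPM (946 to 1020) at 30 days. Its log2 ratio was 1.54 (1.43 to 1.64), and 1.77 outside the mixed clusters. In all other cells CXCL2 was at 153 and 87.7 CPM, a ratio of -0.80, and in lymphatic endothelial cells the ratio was -1.70. Macrophages held more CXCL2 than the blood endothelial cells at both ages, at 1081 and 1091 CPM, a ratio of 0.01. Thinned, it was detected in 27.6% and 47.5% of the cells (unthinned 51.7% and 63.1%), against 5.43% and 2.20% of T and NK cells. ICAM1, which holds leukocytes to the vessel wall, was at 107 and 208 CPM (0.95), and SELP, which slows rolling leukocytes, at 4.64 and 13.8 CPM. In all, 2 of 10 leukocyte adhesion genes were higher, 3 of 9 outside the mixed clusters, and 1 was lower in both, ACKR1, a gene of venules, at 11.4 and 5.44 CPM. The shares over all genes were 8.86% higher and 5.08% lower, and 6.91% and 6.52% outside the mixed clusters.

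Genes of vascular tone and flow were higher in 7 of 22 cases and lower in 1, and in 4 and none of 20 outside the mixed clusters. Over all genes 8.86% were higher and 5.08% lower, and 6.91% and 6.52% outside the mixed clusters. KLF4, a transcription factor induced by laminar flow, was at 112 CPM (99.7 to 125) at 7 days and 274 CPM (254 to 294) at 30 days. Its log2 ratio was 1.29 (1.10 to 1.49). In all other cells together the KLF4 ratio was -0.28, while in the comparison groups it was 0.33 (stromal), 0.36 (lymphatic), 0.20 (macrophages) and 1.18 (T and NK cells). NPR1, the receptor of atrial natriuretic peptide, was at 27.8 and 44.3 CPM, and the vasoconstrictor gene EDN1 at 31.1 and 50.1 CPM. GUCY1A1, GUCY1B1, EDNRA and CYP1B1, genes that mural or stromal cells also express, were counted as higher in all 925 cells but not outside the mixed clusters. PTGIS, a gene of the haemostasis list whose enzyme makes the vessel-relaxing prostacyclin, was at 88.5 and 164 CPM (0.89), and -0.33 in all other cells.

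RGS5, a mural cell gene, had the largest log2 ratio of the 12 named increases, and its level moved with the mixed clusters. It was at 60.7 CPM (51.9 to 70.5) and 222 CPM (204 to 240), and outside the mixed clusters at 16.1 and 39.3 CPM. Without the cells in which at least 3 markers of 1 other cell type were detected, its log2 ratio was 0.055 in place of 1.87. The summed mural markers beside it were those given above, 281 and 633 CPM in all cells and 127 and 120 CPM outside the mixed clusters.

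The other large increases were CFD (complement factor D; 70.7 and 174 CPM), NQO1 (a quinone reductase; 27.1 and 64.2 CPM), SLC9A3R2 (a scaffold protein; 193 and 377 CPM) and HOXD9 (a homeobox factor; 27.1 and 67.8 CPM). AP1AR was at 48.2 and 148 CPM, NPDC1 at 84.6 and 225 CPM, IER5L at 40.3 and 92.5 CPM and OLFML2A at 54.6 and 116 CPM. Each of these 8 kept its direction outside the mixed clusters. In all other cells the log2 ratio was 1.41 for NPDC1, 1.16 for IER5L, 0.99 for SLC9A3R2 and 1.78 for NQO1, and 0.12 for HOXD9 and -0.46 for OLFML2A. Outside the mixed clusters AQP1, a water channel, was also among the largest increases, at 18.2 and 55.3 CPM. Of its 42 and 93 counts there, 35 and 77 lay in the 26 and 48 cells of the arterial-like cluster described below, within which AQP1 was at 257 and 381 CPM, less than 1.5 times apart. In the remaining cells outside the mixed clusters it was at 3.23 and 10.8 CPM, on 7 and 16 counts.

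**Figure D3:**
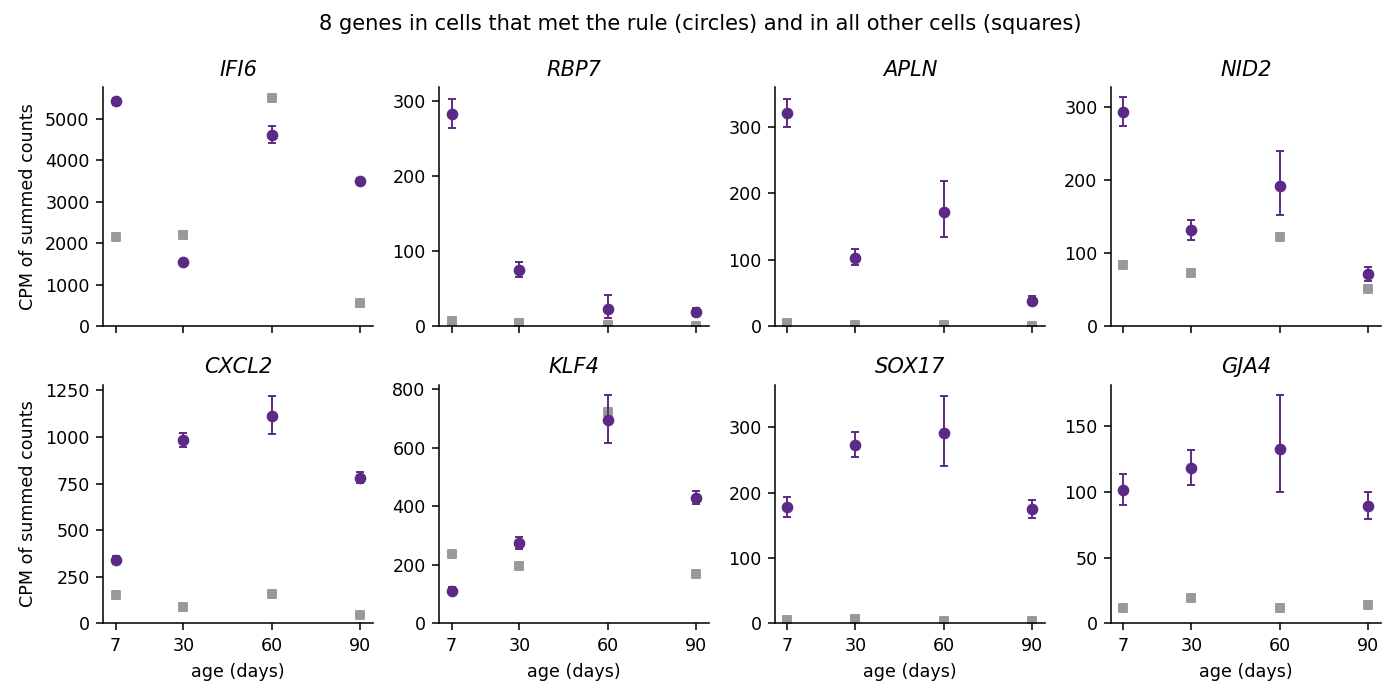
CPM of 8 genes in the cells that met the rule (circles, with exact 95% counting intervals) and in all other cells of the library (squares), by age in days, with 1 library per age and an axis from 0 in each panel. IFI6, RBP7, APLN and NID2 were lower at 30 than at 7 days, and CXCL2, KLF4 and SOX17 were higher. GJA4 was at 101 and 118 CPM.

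The vessel type lists were short. Of 16 arterial genes, 3 were higher at 30 days (SOX17, SEMA3G and UNC5B) and none lower, beside 8.86% and 5.08% over all genes, and the counts were the same for 15 genes outside the mixed clusters. The arterial median was 0.19, which was -0.080 when cells with any of the 3 lymphatic genes were left out. SEMA3G, a secreted semaphorin, had 28 of its 31 counts at 7 days and 58 of 59 at 30 days outside the mixed clusters in the arterial-like cluster, where it was at 205 and 287 CPM, less than 1.5 times apart. SOX17 was at 550 and 589 CPM in that cluster, and at 180 and 296 CPM in the remaining cells outside the mixed clusters. Of 14 Notch pathway genes, 3 were higher and none lower, with a median of 0.27 that was also below 0, at -0.035, under the same choice and at -0.16 in thinned cells, and 2 of 12 were higher outside the mixed clusters. LFNG, which modifies Notch receptors, was at 56.4 and 116 CPM (1.04) and the Notch target HES1 at 252 and 382 CPM (0.60). HEYL, the remaining higher gene, was at 2.17 and 2.38 CPM outside the mixed clusters, where it was not counted. The ligand DLL4 was at 75.3 and 80.2 CPM (0.09, -0.19 to 0.37), and JAG1 at 137 and 132 CPM.

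For the lists in this paragraph, the shares over all genes were 8.86% higher and 5.08% lower, and 6.91% and 6.52% outside the mixed clusters. Of 8 venous genes 2 were higher and 1 lower, and outside the mixed clusters 1 and 1. Of 11 capillary genes 2 were higher and 2 lower, and outside the mixed clusters 1 and 2 of 10. CPE, a venous gene counted as higher with 7.85 and 17.8 CPM, was at 3.47 and 2.97 CPM outside the mixed clusters. Among 17 junction genes 2 were lower and none higher, CGNL1 (140 and 85.3 CPM) and JAM3 (52.8 and 32.7 CPM). Among 16 transport genes 2 were higher and 1 lower, and both lists kept these counts outside the mixed clusters, of 16 genes each. The efflux pump ABCG2 was at 358 and 419 CPM (0.23), against 34.2 and 37.6 CPM in all other cells. The blood-tissue barrier genes SLC2A1 and ABCB1 were not analysed here.

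The counts of the next 4 lists stand beside the same shares over all genes, 8.86% higher and 5.08% lower, and 6.91% and 6.52% outside the mixed clusters. Of 13 haemostasis genes 3 were higher and 1 was lower, F2R, and outside the mixed clusters 3 and 1 of 11. Of 19 BMP and TGF-beta genes 3 were higher and 2 lower, and outside the mixed clusters 3 and 2 of 18. ACVRL1, the BMP9 receptor that works with endoglin, was at 13.2 and 23.6 CPM, the direction opposite to that of ENG. Of 20 angiocrine genes, signals from endothelium to its neighbours, 4 were higher and 3 lower, and 4 and 3 of 18 outside the mixed clusters, with CSF1 at 28.9 and 12.3 CPM. Of 9 genes of the insulin-like growth factor (IGF) system 1 was higher and 2 lower, and none of 8 and 3 outside the mixed clusters. The lower genes were IGFBP2 with 73.5 and 35.6 CPM and IGFBP6 with 58.5 and 31.9 CPM. IGF1, the higher gene, was at 3.93 and 13.4 CPM, and at 1.74 and 2.38 CPM outside the mixed clusters. IGFBP7, a secreted protein of vessels, was at 5774 and 4054 CPM (-0.51), and in all other cells at 1007 and 1875 CPM (0.90).

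**Figure D4:**
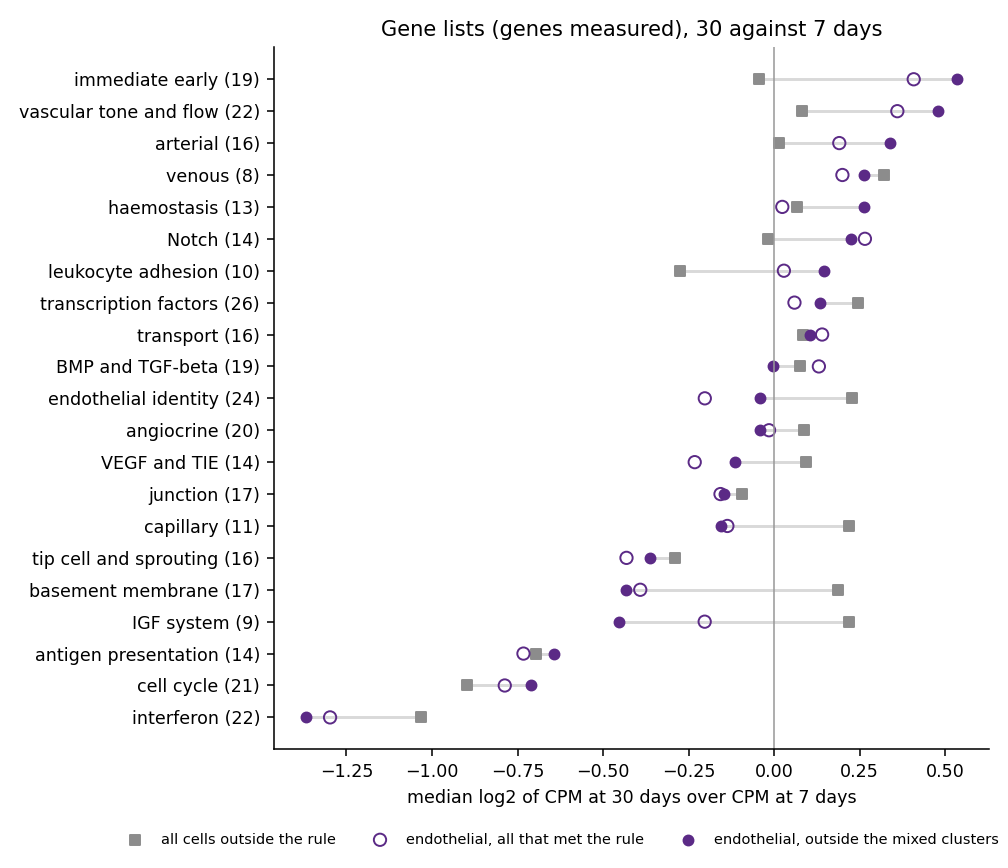
Median log2 ratio of 30 over 7 days for 21 gene lists, with the number of genes measured in parentheses. Filled circles are the cells outside the mixed clusters, open circles all 925 cells and grey squares all other cells of the libraries. The interferon list lies lowest in the endothelial cells, at -1.37 outside the mixed clusters, and the basement membrane list lies at -0.43 there and at 0.19 in the other cells.

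The cells outside the mixed clusters fell into 7 clusters. Cluster 7, with 26 cells at 7 days and 48 at 30 days, had the arterial genes GJA5, SEMA3G, TMEM100, GJA4, DKK2 and CXCL12 among its 12 leading genes and is called arterial-like. The capillary marker BTNL9 was also among the 12. These genes formed the cluster, so their values describe it and test nothing. GJA5, the connexin of arterial endothelium, was at 558 CPM at 7 days and 317 CPM at 30 days in cluster 7, and at 0.92 and 0.68 CPM in the other cells outside the mixed clusters. CXCL12, a chemokine of arterial endothelium, was at 2099 and 2081 CPM there, and at 83.1 and 77.1 CPM in the others. NR2F2, the venous fate factor, ran the other way with 88.1 and 94.1 CPM in cluster 7 and 246 and 287 CPM outside it. The other venous markers were not uniform. EPHB4 was at 58.7 and 29.7 CPM in cluster 7 and at 48.5 and 75.1 CPM in the others. NRP2 was at 58.7 and 109 CPM against 166 and 118 CPM, and VCAM1 at 14.7 and 9.91 CPM against 23.1 and 31.8 CPM. ACKR1 and SELP had 0 counts in cluster 7. The capillary markers went both ways. BTNL9 was at 205 and 159 CPM in cluster 7 and at 6.46 and 4.73 CPM in the others. RGCC was at 316 and 213 CPM against 243 and 142 CPM, and CD36 at 36.7 and 9.91 CPM against 13.8 and 5.41 CPM. CA4 was lower in cluster 7, at 191 and 213 CPM against 624 and 532 CPM.

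The rule's genes chose these cells, so their levels here are a description only. GPIHBP1, one of them, differed within these cells. In cluster 7 it was at 1013 CPM at 7 days and 1006 CPM at 30 days. In the remaining cells outside the mixed clusters it was at 870 CPM and 260 CPM. CLEC3B, another rule gene, was at 1167 and 1085 CPM in cluster 7 and at 4267 and 4496 CPM in the remaining cells.

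Cluster 5, with 63 and 38 cells, led with the division genes UBE2C and TOP2A. The other 5 clusters were not given a cell type name. Cluster 4 held 115 cells of the 7-day library and 8 of the 30-day library and led with RDH10, THBS1, HPGD, MMRN1 and APLN. MMRN1 is one of the 3 lymphatic genes that the rule limits, at 116 CPM in cluster 4 and 46.2 CPM in the rest of the 925 cells. Those 3 genes together summed to 123 CPM in cluster 4 and 58.3 CPM in the rest. Clusters 3 and 6 held 3 and 0 cells of the 7-day library and 121 and 79 of the 30-day library, and led with CXCL2, KLF4 and ATF3 and with IL1R1, ADGRG6 and ADAMTS4. A cluster with cells of mostly 1 library may be that library rather than a type of cell. Cluster 2 (86 and 39 cells) led with CCL21, HPGD and RBP7. CCL21 is one of the lymphatic markers, and outside the mixed clusters its 66 counts at 7 days came from 5 of 352 cells and its 14 counts at 30 days from 4 of 411. Cluster 1 (59 and 78 cells) was shallow, with a median of 1542 UMIs. The sizes of these clusters were not compared between the ages, because the genes that differ between the ages also formed them.

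**Figure D5:**
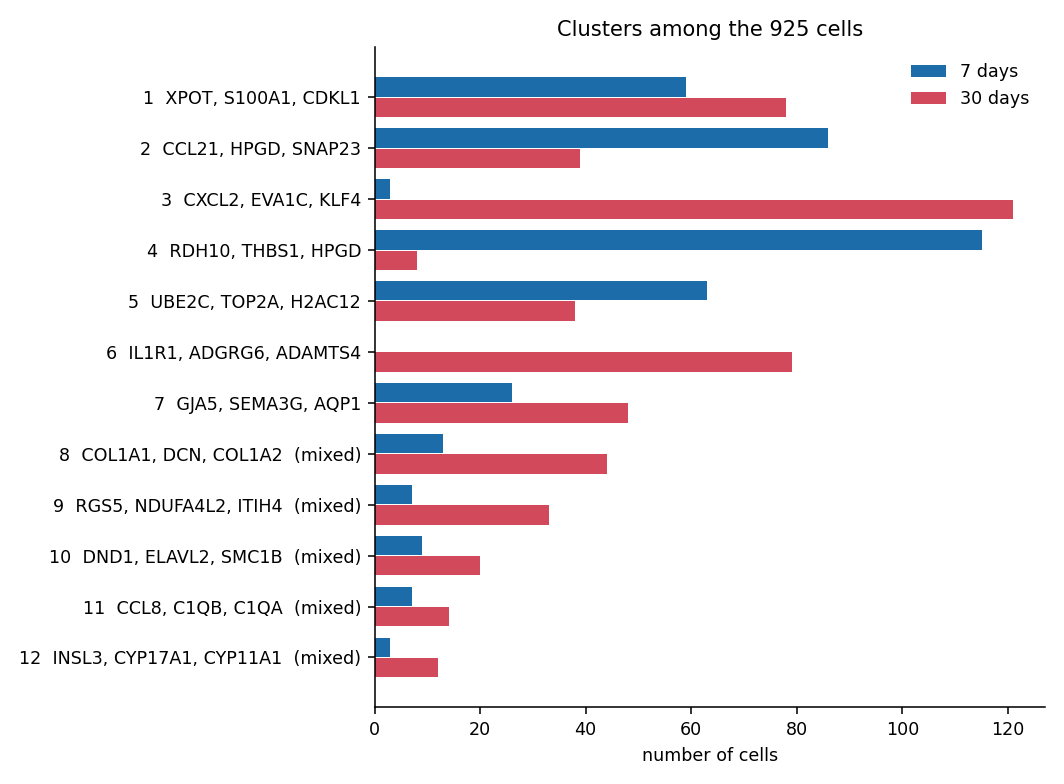
Number of cells of the 7-day library (blue) and the 30-day library (red) in each of the 12 clusters, named by number and the 3 leading genes. Clusters 4 and 6 hold cells mostly or wholly of 1 library, with 115 and 8 cells and with 0 and 79 cells, and the 5 clusters marked as mixed hold 162 cells.

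Over all 13108 genes measured, 1162 were higher at 30 days and 666 lower. With TMM scaling these were 937 and 826. Outside the mixed clusters 770 genes were higher and 726 lower, and 540 of the 1162 and 486 of the 666 were among them. The split of higher and lower genes differed with the mixed cells left out and with the other scaling.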

How the data were processed

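Per the labels' protocols, suspensions of testis cells were loaded on a Chromium controller with 3′ chemistry and sequenced on a NovaSeq. Reads were handled with bcl2fastq and Cell Ranger on build Sscrofa11.1, with Scanpy 1.7.1 also listed, per the submitters' processing notes, and the file headers give Cell Ranger 5.0.1. The deposited matrices hold raw UMI counts per gene and barcode, not normalized. The 7-day library held 96133720 counts in 15896 barcodes and the 30-day library 77992845 in 19373. Of 31908 features, 16508 carried a symbol and 825 were given one from a reference table. Gene coordinates were matched by symbol in RefSeq's gene table for Sscrofa11.1.

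The cells, gene lists and comparisons were chosen with earlier results of these data known. Counts were summed over cells per library, ratios of CPM carry exact conditional binomial intervals, CPM have exact Poisson intervals and shares have Clopper-Pearson ones, at the 95% level. UMIs of 1 cell are not independent cells or animals, so the intervals cover counting error only. The named genes are the top 12 in each direction ranked on the end of the interval closer to equal levels, among genes with a symbol, 50 CPM or more in whichever library was higher, and a level there no lower than in all other cells, leaving out rule, mitochondrial, ribosomal protein and haemoglobin genes. The 15 leading genes were the highest ratios over all other cells. Other genes come from 21 lists, and which list genes are named was in part decided with their values in view. GPIHBP1, CLEC3B, SOX17, the capillary markers, NR2F2 and the other venous markers by cluster, and AQP1, were added after their values were seen. The same holds for the tip cell and basement membrane sums by cluster. Comparison cells were taken by marker counts: 143 and 158 lymphatic, 3528 and 6253 stromal, and 131 and 165 T or NK cells.

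Doublets were called with Scrublet in Scanpy 1.11.5 at an expected 0.8% per 1000 cells. Cells were clustered without integration on 1500 variable genes, 20 components and 15 neighbours with Leiden (leidenalg 0.10.2) at resolution 1, in Python 3.11.15. TMM factors came from edgeR 4.0.16 in R 4.3.3 and served only as an alternative scaling. Intervals were tried before use on simulated independent Poisson counts. These held no variation between cells, animals or libraries, so the trial bears on counting error only. No reference sequence was used. A single measured gene is not reported here.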

Additional observations from a re-analysis of the deposited data

Results flagged for a closer look

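Among the genes of the lists and the named genes, 4 had a ratio of at least 1.5 in the blood endothelial cells and a ratio of at least that size in the opposite direction in the other cells of these libraries. With 1 library per age, these differences were not tested. CXCL2 had a log2 ratio of 1.54 in the endothelial cells and -0.80 in the other cells, though among these it was 0.01 in macrophages. LAMA4, the endothelial laminin chain, had -0.74 and 0.67, and IGFBP6, a binding protein of insulin-like growth factors, -0.87 and 1.01. FABP4, a fatty acid carrier of capillaries, had 3.35 and -1.98, but its ratio in the endothelial cells rests on 1 count at 7 days and 10 at 30 days, with an interval of 0.53 to 8.79, and outside the mixed clusters it was 1.45 with an interval from -2.81 to 7.34. For CXCL2, LAMA4 and IGFBP6 the direction was the same outside the mixed clusters, at 1.77, -0.83 and -0.90.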

How the results depend on the processing

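No paired analysis was possible because each age had 1 library. Against 1162 of 13108 genes higher at 30 days (8.86%), 445 of 9214 (4.83%) were found in cells thinned to 1500 UMIs, 655 of 10434 (6.28%) without cells that held markers of another cell type, 754 of 9010 (8.37%) with a minimum of 50 counts and 770 of 11138 (6.91%) without the mixed clusters. Against 666 of 13108 lower, 1141 of 13108 were found with the mean over cells. The share of cells was 2.82% at 7 days and 3.09% at 30 days, and became 1.55% and 2.54% with no lymphatic gene allowed, 2.55% and 2.76% in thinned cells, and 2.34% and 2.59% with at most 0.05% of UMIs from Sertoli genes. It was 2.54% and 2.38% without the mixed clusters, and 3.86% and 3.84% with no limit on Sertoli genes, so which age had the larger share depended on the last of these settings and on the mixed clusters. The dividing share was 24.8% and 12.7% with all counts of each cell, and 19.3% and 10.2% with at least 2 genes. ENTPD1 reversed in thinned cells (-0.058), HEYL with no lymphatic gene (-0.027) and CPE without the mixed clusters (-0.22). The cause was not tested. The 24 named increases and decreases kept their direction in all settings run, and RGS5 lost its call without cells that held markers of another type. The interferon list kept 19 to 21 genes lower. The settings marked by Sertoli genes and by mixed clusters were chosen after seeing the data. Genes under 10 counts were not compared, and a count of 0 allows up to 3 counts in a library.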

Other observations

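Some genes known best from other cell types were found in the blood endothelial cells. They were chosen after their values were seen, and they are given as values. WT1, a transcription factor of Sertoli cells and of the gonadal ridge, was at 109 CPM (95.5 to 123) at 7 days and 121 CPM (105 to 139) at 30 days outside the mixed clusters. In T and NK cells WT1 was at 3.37 and 6.87 CPM, in stromal cells at 18.7 and 24.6 CPM, in lymphatic endothelial cells at 41.9 and 12.9 CPM and in all cells outside the rule at 51.9 and 59.3 CPM. It was detected in 42.3% and 33.8% of the endothelial cells, and in 1.53% and 1.82% of the T and NK cells, at median depths of 4157.5 and 3000 UMIs against 3179 and 1592. The 3 Sertoli genes of the rule were limited in these cells, and they summed to 247 and 206 CPM there.

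LHX6, a LIM homeobox factor best known from neurons, was at 85.6 and 79.1 CPM outside the mixed clusters, and at 1.59 and 1.88 CPM in all cells outside the rule. In lymphatic endothelial cells LHX6 was at 22.8 and 5.73 CPM. It was detected in 37.5% and 24.3% of the blood endothelial cells and in 14.0% and 1.90% of the lymphatic ones. KIT, the receptor of stem cell factor, was at 248 CPM (228 to 270) at 7 days and 98.2 CPM (83.8 to 114) at 30 days, against 5.05 and 9.16 CPM in T and NK cells, 52.6 and 14.1 CPM in stromal cells and 75.7 and 33.0 CPM in lymphatic endothelial cells. MRC1, a mannose receptor of macrophages that some endothelia also carry, was at 186 and 104 CPM. In macrophages it was at 264 and 326 CPM, and in lymphatic endothelial cells at 219 and 225 CPM.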
